A study of Homo sapiens with 4 samples.

Results

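The promoters of splicing factor genes were examined in the list of new MBD-seq peaks of HEK293 cells that expressed the wild type editor. The members are the protein-coding genes whose symbols begin with SRSF, HNRNP, SNRP, SF3A, SF3B, PRPF, U2AF or LSM followed by a number or letter, without SNRPN. They number 85 of 19881 protein-coding genes, and the promoter was taken as the start site of the canonical transcript with 1000 bp on either side. The membrane protein genes LSMEM1 and LSMEM2 and the readthrough gene HNRNPUL2-BSCL2, which the symbols alone would include, were left out. HEK293 is a human embryonic kidney cell line. MBD-seq uses the protein MBD2, which binds methylated CpGs, to enrich sonicated DNA fragments with several methylated CpGs before sequencing.

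The study made 4 libraries, 1 for each condition. These were untreated cells, and cells given Ab-3A3L with wild type DNMT3A (WT) or with the single amino acid exchange K844E or R887E in DNMT3A. The 3 treated groups shared transient transfection with plasmids for dCas9-SunTag and for an sgRNA against the ISG15 promoter, and cells carrying all components were sorted after 3 days. Ab-3A3L is an antibody fragment that binds the SunTag, fused to the catalytic part of DNMT3A and the C-terminal part of DNMT3L. The values below come from the WT library alone, as peaks the authors called new against untreated cells. The other libraries were not analysed here, so no comparison between conditions was made and no value has a replicate.

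Introns are removed from pre-mRNA by the spliceosome, which assembles from small nuclear ribonucleoproteins (snRNPs) and many further proteins. SR proteins and hnRNP proteins bind the pre-mRNA and steer the choice of splice sites. The genes are used in nearly all cells, and most of their promoters lie in CpG islands, stretches rich in CpG that are normally free of methylation. DNMT3A adds methyl groups to the cytosine of CpGs.

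The sequences below are shown because they span the range of promoters in the list. They are the bases from -200 to -1 before the start site on the strand of the gene, in hg19, and capitals mark CpGs. HNRNPA0 carried the highest fold of all members (chr5:137090053-137090252, minus strand, 29 CpGs). SNRPD1 stands for the low end of the folds (chr18:19192075-19192274, plus strand, 20 CpGs). SF3B5 is a CpG-rich promoter without a new peak (chr6:144416711-144416910, minus strand, 17 CpGs), and HNRNPA1L3 is the member with the fewest CpGs (chr16:51587147-51587346, plus strand, 1 CpG). HNRNPH3, HNRNPH1 and SF3A1 had lower folds than SNRPD1, and 10 promoters without a new peak had more CpGs than SF3B5, but an annotated exon covers the base before their start sites and they were passed over. None of the 4 windows held a base of a new peak.
HNRNPA0: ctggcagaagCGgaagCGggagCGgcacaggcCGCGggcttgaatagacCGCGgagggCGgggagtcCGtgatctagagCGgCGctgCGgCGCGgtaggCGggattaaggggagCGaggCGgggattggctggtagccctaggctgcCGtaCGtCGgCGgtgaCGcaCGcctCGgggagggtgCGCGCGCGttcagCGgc
SNRPD1: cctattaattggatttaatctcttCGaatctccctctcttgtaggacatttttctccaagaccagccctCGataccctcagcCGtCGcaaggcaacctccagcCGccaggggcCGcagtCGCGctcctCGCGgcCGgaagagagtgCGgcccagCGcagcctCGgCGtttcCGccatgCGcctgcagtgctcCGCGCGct
SF3B5: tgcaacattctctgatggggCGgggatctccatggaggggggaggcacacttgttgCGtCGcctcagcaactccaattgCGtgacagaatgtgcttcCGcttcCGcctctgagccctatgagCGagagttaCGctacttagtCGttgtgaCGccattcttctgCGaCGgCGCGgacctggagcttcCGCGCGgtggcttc
HNRNPA1L3: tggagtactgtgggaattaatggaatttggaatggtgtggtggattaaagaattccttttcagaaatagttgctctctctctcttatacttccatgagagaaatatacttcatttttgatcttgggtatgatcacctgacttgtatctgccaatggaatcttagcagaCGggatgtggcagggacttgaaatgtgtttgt
HNRNPA0 thus had the densest CpGs of these 4 windows just before its start site, while both of its new peaks lay to the sides of that window.

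The next sequences are 121 bases centred on the summit of a peak, the base with most fragments, again in hg19 and on the strand of the gene, and show what DNA was pulled down most. For each subfamily the highest peak whose summit window holds no annotated untranslated region is given. They lie at chr11:94800602-94800722 for SRSF8 on the plus strand, chr5:137089009-137089129 for HNRNPA0 on the minus strand, chr15:101835241-101835361 for SNRPA1 on the minus strand, chr11:65819386-65819506 for SF3B2 on the plus strand, chr12:50017063-50017183 for PRPF40B on the plus strand and chr5:157171193-157171313 for LSM11 on the plus strand.
SRSF8: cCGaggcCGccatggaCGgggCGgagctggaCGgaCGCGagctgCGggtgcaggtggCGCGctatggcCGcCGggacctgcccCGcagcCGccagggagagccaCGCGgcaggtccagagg
HNRNPA0: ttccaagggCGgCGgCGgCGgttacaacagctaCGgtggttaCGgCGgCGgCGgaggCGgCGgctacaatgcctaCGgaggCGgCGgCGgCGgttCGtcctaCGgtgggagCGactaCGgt
SNRPA1: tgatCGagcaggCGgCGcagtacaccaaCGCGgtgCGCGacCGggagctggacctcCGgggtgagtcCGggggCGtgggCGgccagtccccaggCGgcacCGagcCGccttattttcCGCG
SF3B2: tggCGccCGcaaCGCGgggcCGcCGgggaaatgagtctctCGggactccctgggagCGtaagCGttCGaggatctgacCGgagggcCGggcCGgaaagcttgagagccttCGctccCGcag
PRPF40B: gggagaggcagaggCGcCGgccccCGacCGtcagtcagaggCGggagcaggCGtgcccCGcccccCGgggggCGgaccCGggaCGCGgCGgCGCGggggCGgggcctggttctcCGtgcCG
LSM11: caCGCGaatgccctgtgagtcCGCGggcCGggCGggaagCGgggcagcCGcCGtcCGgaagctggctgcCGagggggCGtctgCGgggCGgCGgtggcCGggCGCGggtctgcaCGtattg
Between 15 (SF3B2) and 20 (HNRNPA0) CpGs fell in these windows, and the windows of SRSF8 and HNRNPA0 lie around summits in the coding part of exon 1.

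A new peak overlapped 44 of the 85 promoters, which is 51.8% (95% exact binomial interval 40.7 to 62.7%). Over all protein-coding promoters the share was 42.1%. Over the 14496 promoters with a CpG island rebuilt from unmasked sequence, which 81 of the members have, it was 57.2%. The rebuilt set of 55779 islands is larger than the set the paper used, and how a stricter set would move this share was not tested. Promoters of a like CpG number, taken from 10 classes of CpGs in the promoter, gave an expected share of 56.0% for the members, or 47.6 promoters. The 3 shares of 42.1, 57.2 and 56.0% lie within the members' interval. The members could thus not be told from all promoters, from promoters with a rebuilt island or from promoters with as many CpGs. When promoters were classed by the observed to expected ratio of CpGs instead, the expected share was 64.5%, which lies above the interval.

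Promoters with a new peak held more CpGs than those without. The median was 152 CpGs at the 44 promoters with a peak and 92.0 at the 41 without, against 109 over all members and 96.0 over other promoters. None of the 13 members with fewer than 83 CpGs had a new peak, and a count of 0 among 13 allows a share of up to 23.1%. Other promoters in that whole range had a peak in 8.13%, but the members sat at its upper end. At 65 to 82 CpGs, with 8 of the 13, the share of other promoters was 24.5%. At 39 to 64 CpGs, with 3, it was 7.36%, and in the classes below, with 1 member each, 1.01 and 0.0474%. In the class of 83 to 96 CpGs 5 of 18 members had a peak (27.8%, other promoters 41.1%), and in the class of 97 to 110 CpGs it was 7 of 13 (other promoters 54.8%). All 13 members with 145 to 170 CpGs had a peak, and 12 of 15 with 171 or more, where other promoters reached 78.0 and 79.0%.

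**Figure D1:**
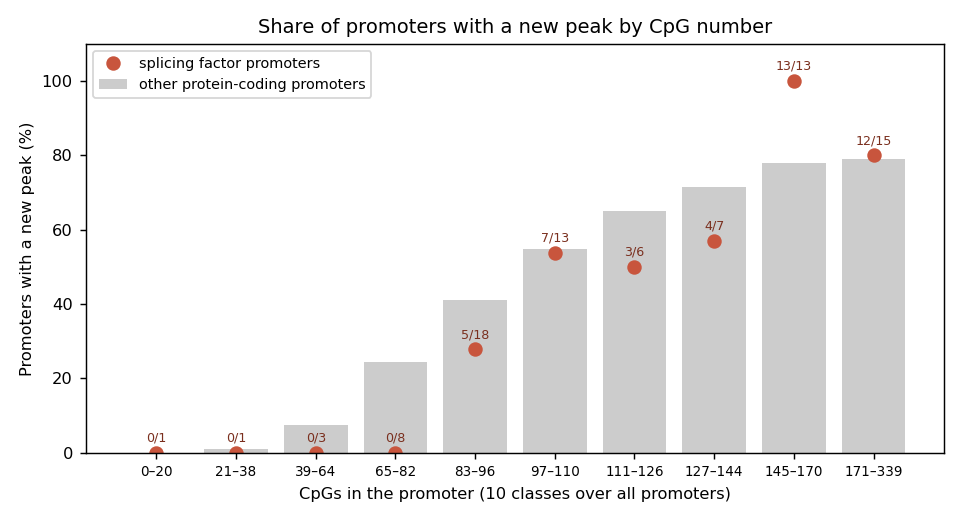
Percent of promoters with a new peak in 10 classes of CpG number, for other protein-coding promoters (bars) and for the 85 splicing factor promoters (points, with the members with a peak over the members in the class). The points run from 0 of 8 at 65 to 82 CpGs to 13 of 13 at 145 to 170 CpGs, and the bars rise from 24.5 to 78.0% over the same classes.

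Subfamilies differed in their shares, and so did their CpG numbers. SRSF promoters carried a new peak in 9 of 12 (75%, interval 42.8 to 94.5%, expected from CpG number 70.0%), and HNRNP promoters in 16 of 24 (66.7%, interval 44.7 to 84.4%, expected 61.3%). LSM promoters followed with 8 of 13 (61.5%, interval 31.6 to 86.1%, expected 49.5%). The subfamilies of the snRNPs and of the spliceosome core were lower. SNRP promoters had a peak in 4 of 11 (36.4%, interval 10.9 to 69.2%, expected 48.8%), those of SF3A, SF3B and U2AF in 4 of 12 (33.3%, interval 9.92 to 65.1%, expected 56.8%), and PRPF promoters in 3 of 13 (23.1%, interval 5.04 to 53.8%, expected 45.1%). Every one of these 6 intervals includes the share of promoters of a like CpG number, so at this number of genes no subfamily could be told from them.

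The regulators, SRSF and HNRNP together, had a peak at 25 of 36 promoters (69.4%, interval 51.9 to 83.7%). Their median was 156 CpGs, and 64.2% was expected from CpG number. The 4 other subfamilies had one at 19 of 49 (38.8%, interval 25.2 to 53.8%), with a median of 98.0 CpGs. For these 4 together 50% was expected from CpG number, which lies within the interval. Among them LSM had a share above its expected one (61.5 and 49.5%). The shares of SNRP, of PRPF and of SF3A, SF3B and U2AF were below their expected ones. With 127 or more CpGs, the count was 23 of 25 among SRSF and HNRNP and 6 of 10 among the other subfamilies, beside 76.1% of other promoters. With 83 to 126 CpGs it was 2 of 6 and 13 of 31, beside 53.7%. The grouping of the subfamilies was made after their counts were known, and what part the CpG number has in the difference was not tested.

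**Figure D2:**
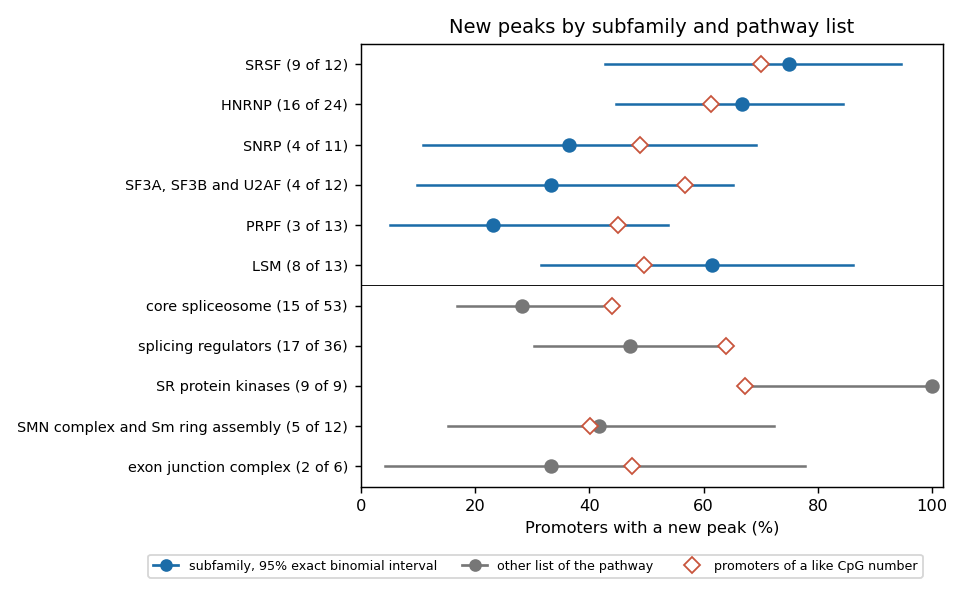
Percent of promoters with a new peak for the 6 subfamilies (blue) and for 5 lists of other genes of the pathway (grey), with 95% exact binomial intervals, and the share of promoters of a like CpG number (open diamonds). The diamonds lie within the intervals of all 6 subfamilies and outside that of the core spliceosome list, whose interval ends at 42.3%.

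The fold is the enrichment over background that the deposited list gives for each peak. Over the 44 promoters the fold of the highest peak had a median of 8.71 (quartiles 6.49 and 10.5, range 2.71 to 14.9). Other promoters with a new peak had a median of 8.26 (quartiles 6.21 and 11.1), and other promoters of the same CpG class one of 8.46, which 23 of the 44 members exceeded in their own class. Peaks at or above the median fold of the list, 7.45, were found at 32 of the 85 promoters (37.6%), beside 25.9% of all protein-coding promoters. The fragments under the summit, worked out from each peak's fold and p-value, had a median of 16 and ran from 9 to 30, with 5 members under 10. The intervals given for fragments are 95% exact Poisson intervals and cover counting error only, and the order of the members by fold describes 1 library.

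Among the promoters with a peak, the fold hardly followed the CpG number. Across the 44 genes, which share 1 library, Spearman's rho was 0.185 and Pearson's r 0.136. For the fragments at the summit they were 0.273 and 0.254.

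**Figure D3:**
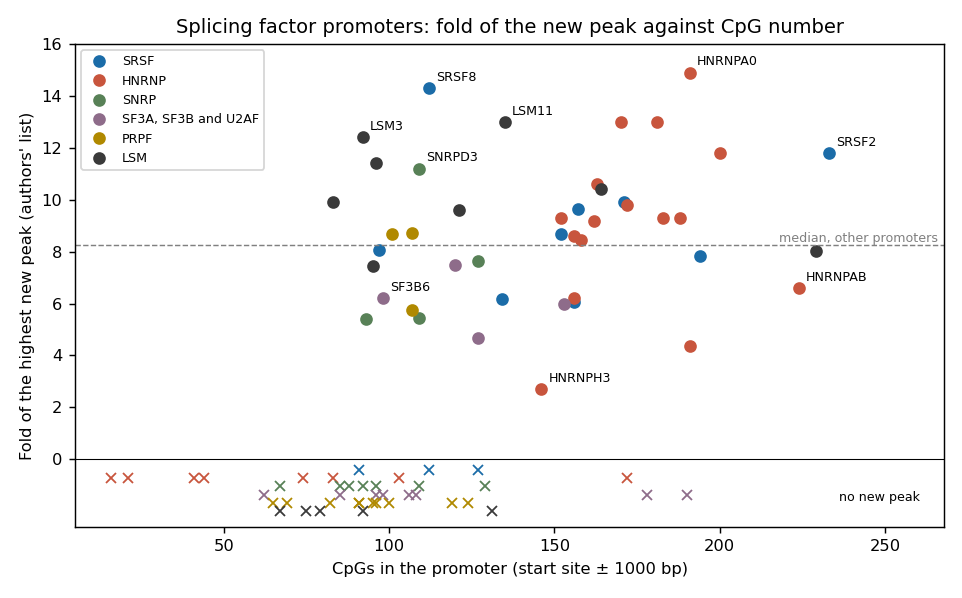
Fold of the highest new peak (vertical axis) against the number of CpGs in the promoter (horizontal axis) for the 85 genes, coloured by subfamily, with promoters without a new peak as crosses below 0. Promoters with a peak start at 83 CpGs, and folds from 2.71 (HNRNPH3) to 14.9 (HNRNPA0) occur at promoters with more than 145 CpGs.

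The SR proteins bind exonic enhancers through an RNA recognition motif and contact the splicing machinery through arginine-serine repeats. SRSF8 had the highest fold of this subfamily, 14.3, with 22 fragments (interval 13.8 to 33.3), in a peak at chr11:94800129-94801077. SRSF2, known as SC35, had a fold of 11.8 with 19 fragments in a peak of 1654 bp that held 213 CpGs and covered 82.7% of the promoter. SRSF2 has the most CpGs of all members, 233. SRSF9 followed with 9.91 and 15 fragments, and SRSF12 with 9.66 but 29 fragments over a background rate of 2.11, the second highest number of fragments among the members. SRSF4 (8.69), SRSF11 (8.07), SRSF6 (7.84), SRSF7 (6.16) and SRSF1 (6.06) made up the rest. SRSF1, the factor also known as SF2 or ASF, had 9 fragments at a summit 812 bp into the gene in exon 2, and its peak of 255 bp was missed with a promoter of 500 bp on either side.

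The 3 SRSF promoters without a new peak were SRSF5 with 127 CpGs, SRSF10 with 112 and SRSF3 with 91. SRSF10, also called SRp38, can repress splicing. In the CpG classes of these 3 promoters other promoters carried a peak in 71.5, 65.1 and 41.1%.

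The hnRNP proteins coat nascent transcripts and often oppose SR proteins. HNRNPA0 had a fold of 14.9 with 23 fragments (interval 14.6 to 34.5) over a rate of 0.611, the lowest background rate in the list, which 16 members shared. Its peak lay at chr5:137088840-137089656, from 396 bp to 1212 bp after the start site in the coding part of exon 1, and a second peak of fold 8.81 began at -831 and ended at -523. HNRNPU, also called scaffold attachment factor A, had a fold of 13.0 with 21 fragments, and HNRNPUL2, a relative of it, had 13.0 with 30 fragments, the most of any member. The third member of that branch, HNRNPUL1, had 6.21 with 9 fragments. The branch carried a peak at 3 of 3 promoters (interval 29.2 to 100%), and 78.3% was expected from CpG number. The fragments of HNRNPUL2 (interval 20.2 to 42.8) and HNRNPUL1 (4.12 to 17.1) were apart in their counting intervals, over background rates of 1.39 and 0.611. The pair was chosen after the values were seen. The intervals of all 44 members with a peak overlapped that of HNRNPA0.

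HNRNPD, known as AUF1 for binding AU-rich elements, and its relative HNRNPDL lie near each other on chromosome 4 and both carried peaks. HNRNPDL had a fold of 11.8 in a peak of 1894 bp, the widest of all members, which covered 94.7% of the promoter. HNRNPD had 10.6 at -506 and a second peak of 6.83 at 423 bp, with its start site between them.

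HNRNPM had a fold of 9.81. HNRNPA3, HNRNPK, which binds stretches of C, and HNRNPLL had the same fold of 9.31, since each had 14 fragments over the lowest rate. Their peaks differed in width from 414 bp at HNRNPA3 and 513 bp at HNRNPK to 1680 bp at HNRNPLL. HNRNPR had 8.62, HNRNPL, which binds CA repeats, 8.44, and HNRNPAB 6.59 at a promoter of 224 CpGs. HNRNPF, HNRNPH1 and HNRNPH3, which bind runs of G, had 9.19, 4.38 and 2.71, and HNRNPH2 on chromosome X, with 74 CpGs, had no peak. HNRNPH3 had the lowest fold of all members although 28 fragments were counted at its summit, since the background rate there was 9.72. Its low fold therefore goes with a high background and not with few fragments.

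The other HNRNP promoters without a new peak were HNRNPA2B1 (172 CpGs), HNRNPA1 (103), HNRNPC (83), HNRNPCL1 (44), HNRNPCL2 (41), HNRNPA1L2 (21) and HNRNPA1L3 (16). HNRNPA1 and HNRNPA2B1 are among the most abundant hnRNP proteins. The nearest new peak to HNRNPA2B1 was 1239 bp from its start site, with a fold of 5.59, and entered with a promoter of 2000 bp on either side. The last 4 genes are copies or close relatives of HNRNPA1 and HNRNPC without a rebuilt CpG island, and their expected share from CpG number was 3.94%. Reads of near-identical copies cannot always be placed, and whether this bears on these promoters was not tested. HNRNPA1L3, whose 200 bases are printed above, had 1 CpG there.

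The SNRP genes encode the Sm proteins, which form a ring on the spliceosomal snRNAs, and proteins particular to the U1 and U2 snRNPs. Of the 7 ring genes 3 had a peak (42.9%, interval 9.90 to 81.6%, expected from CpG number 49.4%). SNRPD3 had a fold of 11.2 with 17 fragments at -943, SNRPG 5.45 with 10 fragments at 90 bp, and SNRPD1 5.41 with 12 fragments at 231 bp. SNRPD2 (129 CpGs), SNRPF (96), SNRPB (88) and SNRPE (85) had none. Of the 4 others, SNRPA1 of the U2 snRNP had a peak of 7.64 at 152 bp and another of 6.83 at -407. SNRPA (109 CpGs) and SNRPC (92) of the U1 snRNP and SNRPB2 (67) of the U2 snRNP had none. The peak of SNRPD3 was the only one of the ring genes with a fold at or above the median of the list.

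SF3A and SF3B proteins belong to the U2 snRNP and help it to bind the branch point, and the U2AF proteins recognise the end of the intron before it. The highest fold was 7.49 at SF3B2, with 22 fragments at -389, followed by SF3B6, which contacts the branch point, with 6.21 and 9 fragments at -775. U2AF1, which binds the AG at the end of the intron, had 6.0 with 9 fragments at 401 bp, and SF3A1 had 4.68 with 10 fragments at -9. All 4 folds stood near or below the middle of the list, where 7.49 stood at percentile 51.8 and 4.68 at percentile 17.9.

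Promoters without a new peak in this group included the most CpG-rich of the negative members. U2AF2, which binds the polypyrimidine tract, has 190 CpGs and SF3A2 178, in a class where other promoters carried a peak in 79.0%. SF3B5 (108 CpGs), SF3A3 (106), SF3B1 (98), SF3B3 (96), U2AF1L4 (85) and SF3B4 (62) also had none. SF3B1 is the member of the group that is often mutated in myelodysplastic syndromes. The nearest new peak to U2AF2 was 11921 bp from its start site.

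PRPF genes are named after yeast mutants in pre-mRNA processing and hold several unrelated proteins. PRPF40B, a relative of a yeast U1 snRNP protein, had a fold of 8.73 with 16 fragments at -221, PRPF19, a ubiquitin ligase, 8.69 with 17 fragments at 295 bp, and PRPF4B, a kinase, 5.74 with 14 fragments at 362 bp. Taken as PRPF genes of the U4/U6.U5 tri-snRNP were PRPF8 (119 CpGs), PRPF6 (100), PRPF31 (96), PRPF3 (91) and PRPF4 (91). None of these 5 had a new peak, where 48.6% was expected from CpG number. Genes of that complex outside the PRPF subfamily are not in this count. A count of 0 among 5 allows a share of up to 60.0%, and its exact interval ends at 52.2%, both above the expected share. PRPF38B (95 CpGs), PRPF38A (82), PRPF18 (69) and PRPF39 (65) had none either. PRPF6 had the closest peak of these, 1853 bp from its start site with a fold of 7.58.

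LSM proteins resemble the Sm proteins. LSM2 to LSM8 form a ring on the U6 snRNA, and 4 of these 7 promoters had a peak (57.1%, interval 18.4 to 90.1%, expected from CpG number 40.7%). They were LSM3 (12.4), LSM4 (11.4), LSM6 (9.93) and LSM8 (7.45). LSM5 (67 CpGs), LSM2 (79) and LSM7 (131) had none. LSM1, which takes the place of LSM8 in the ring that acts in mRNA decay, had 9.60. LSM11, a part of the U7 snRNP that acts in the processing of histone mRNA ends, had the highest fold of the subfamily, 13.0 with 20 fragments at 533 bp in a peak at chr5:157171009-157171429, while its partner LSM10 (75 CpGs) had none. LSM14A and LSM14B, proteins of P-bodies, had 10.4 and 8.04, and LSM12 (92 CpGs) had none. The highest peak reached the median fold of the list at all 8 LSM promoters with a peak, at LSM8 by equalling it, compared with 7 of 9 SRSF and 12 of 16 HNRNP promoters and 61.5% of all promoters with a peak. The median fold of 10.2 came from 11 to 22 fragments. LSM3, LSM4, LSM6 and LSM8 did so with 83 to 96 CpGs in the promoter.

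The summit lay upstream of the start site at 25.0% of the members with a peak and at 29.4% of other promoters with one. The median position of the summit was 304 bp after the start (quartiles 15.8 and 421, range -943 to 1415), compared with 165 bp (quartiles -57.0 and 373) at other promoters. The summit fell in an intron at 18 promoters, upstream at 11, in a coding exon at 9 and in an untranslated exon at 6. It was over 300 bp downstream at 22 promoters, over 300 bp upstream at 8 and within 100 bp of the start at 6. HNRNPF had its summit outside the promoter, at 1415 bp.

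The start site itself was covered by a new peak at 19 of the 44 promoters (43.2%). At other promoters with a new peak the share was 64.5%, and 63.8% was expected from the CpG classes. The peaks were also narrower, with a median of 472 bp (range 253 to 1894) against 594 bp, and covered a median of 25.0% of the promoter (range 12.6 to 94.7%). Whether the width accounts for the share was not tested. At 300 bp after the start the members with a peak were covered in 70.5% and other promoters in 67.3%, while at -200 it was 25.0 and 40.5%. Further upstream the members were covered more often, with 27.3 and 19.6% at -500 and 20.5 and 11.8% at -700. The CpGs of the members with a peak were densest in the 50 bp before the start on average, at 12.6 per 100 bp. In the promoters without a peak the same 50 bp held 9.56 CpGs per 100 bp.

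The 25 promoters whose start site was missed were of 3 kinds. At 15 of them a peak lay downstream alone. These were SRSF1, SRSF7, SRSF8, SRSF12, HNRNPA3, HNRNPF, HNRNPH1, HNRNPR, HNRNPUL1, LSM6, LSM11, PRPF4B, SNRPD1, SNRPG and U2AF1, with gaps from 4 bp at LSM6 to 607 bp at SRSF1. At 7 the peak lay upstream alone, at HNRNPK, LSM1, LSM3, PRPF40B, SF3B2, SF3B6 and SNRPD3, with gaps from 106 bp at PRPF40B to 710 bp at SF3B6. At HNRNPA0, HNRNPD and SRSF6 peaks flanked the start site on both sides. In SRSF6 these were a peak of fold 6.0 at -587 and one of 7.84 at 483 bp.

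In total, 8 promoters had more than 1 peak (18.2% of those with a peak, 12.5% at other promoters). Besides HNRNPA0, HNRNPD, SRSF6, SNRPA1 and HNRNPF, these were HNRNPU, HNRNPL and LSM14B. The 44 promoters held 52 peaks, and no peak was shared between members.

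**Figure D4:**
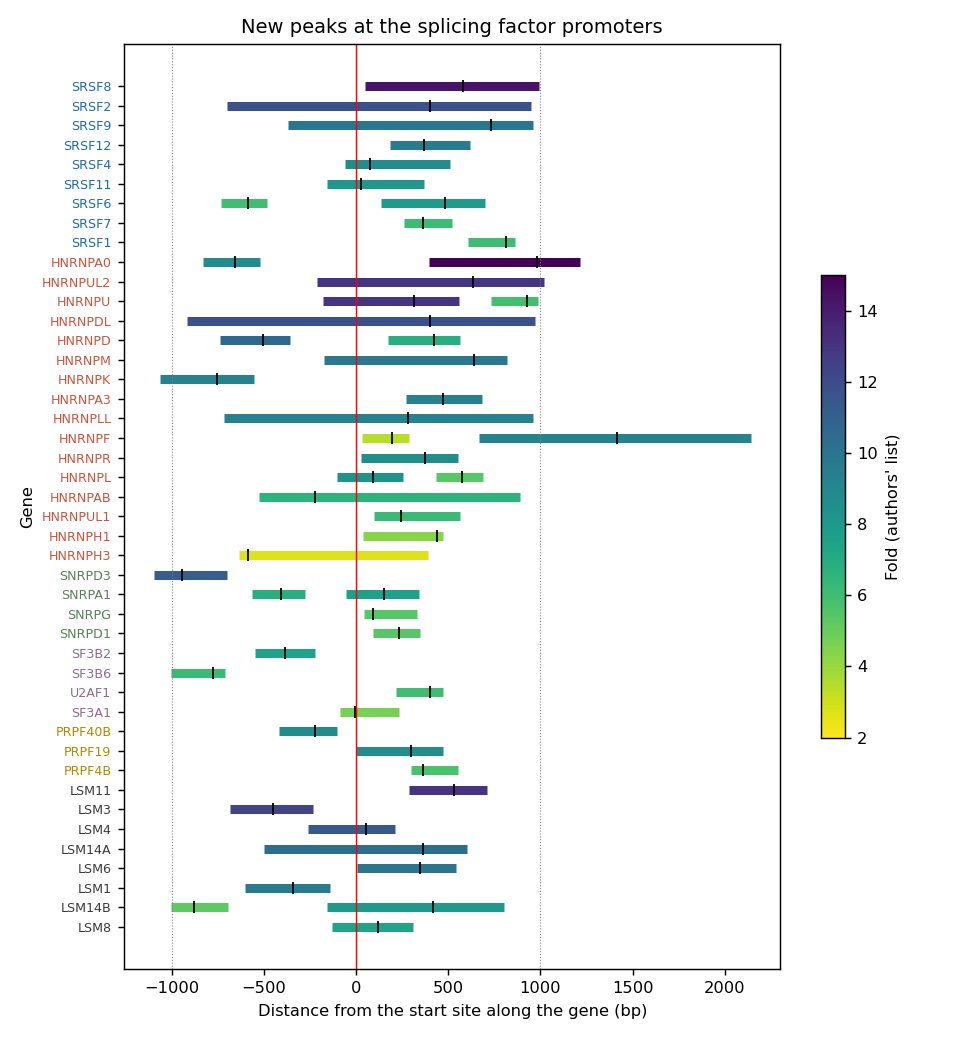
Extent of the 52 new peaks (bars, coloured by fold) and their summits (ticks) relative to the start site (red line) for the 44 promoters with a peak, ordered by subfamily and fold. Bars cross the red line at 19 promoters and lie on the downstream side alone at 15.

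**Figure D5:**
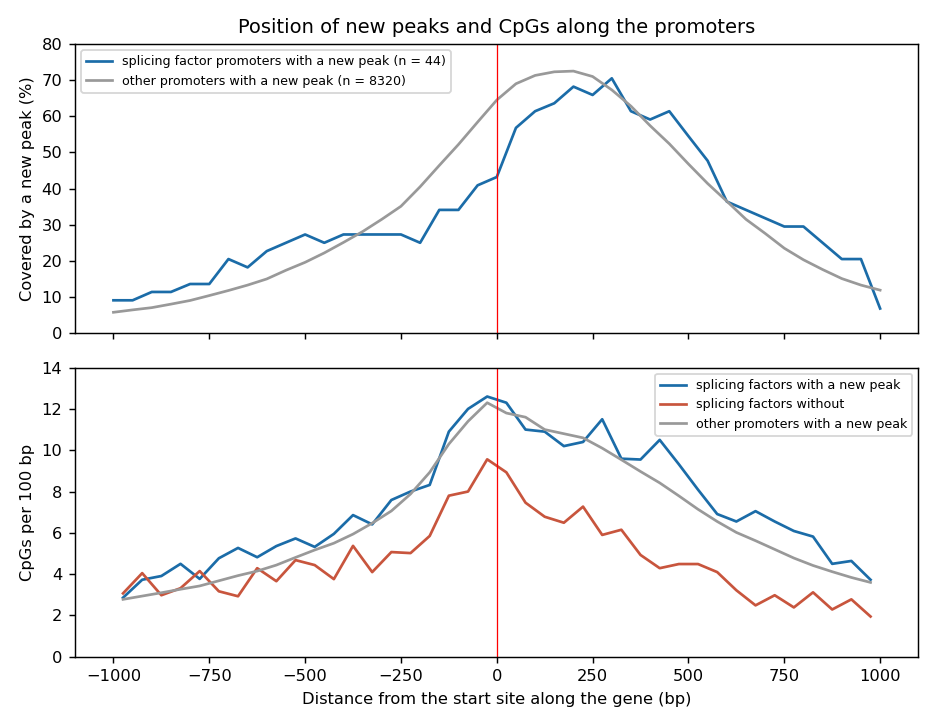
Percent of promoters covered by a new peak (top) and CpGs per 100 bp (bottom) by distance from the start site along the gene, for splicing factor promoters and other promoters. At the start site 43.2% of the 44 members with a peak and 64.5% of the 8320 other promoters with a peak were covered, while CpG density of the members with a peak was highest there.

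Some upstream peaks lay nearer to a neighbouring gene. Of the 85 members 20 have the start site of another protein-coding gene within 1000 bp on the other strand, and 8 of these carried a new peak (40.0%), compared with 36 of the other 65 (55.4%). Their median CpG numbers were 115 and 108. Of all protein-coding promoters 42.1% had a peak, and 56.0% was expected for the 85 members from CpG number. The expected share was not worked out for members with and without a partner, and the difference between them was not tested. In 4 of the 8 the summit was closer to the partner. At HNRNPK it was 168 bp from the start of RMI1, at LSM1 19 bp from that of BAG4, at LSM3 237 bp from that of XPC, a gene of nucleotide excision repair, and at SNRPD3 82 bp from that of GUCD1. In these promoters a new peak cannot be assigned to the splicing factor gene alone. They include the highest fold of the SNRP subfamily and the second highest of the LSM subfamily. The wide peak of HNRNPDL also covered the start of ENOPH1, 128 bp from that of HNRNPDL, and cannot be assigned to 1 gene either. Start sites of long noncoding RNA genes were not counted as neighbours here.

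New peaks in the bodies of these genes but outside the promoter numbered 6, each in another gene, and 3 of them lay downstream of the canonical start site. HNRNPF had a fold of 18.0 with 28 fragments in intron 1, at chr10:43891267-43893032, which is higher than any peak on a member's promoter. SF3B3, without a promoter peak, had one of 7.08 in intron 11, and LSM14B one of 3.82 in intron 4. Those of SRSF11 (6.49), HNRNPH1 (4.50) and SRSF5 (3.64) lay upstream of the canonical start, within longer annotated forms of the genes, and that of SRSF11 was on the promoter of LRRC40.

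Short motifs were counted on both strands from 250 bases before to 50 bases after the start site. The letters CCGGAAG, the type bound by ETS factors, were present in 25 of the 85 promoters (29.4%) and in 14.2% of all protein-coding promoters. The share was 29.5% at members with a new peak and 29.3% at those without. CCAAT was present in 45 members (52.9%, all promoters 36.0%), with 54.5 and 51.2% at members with and without a peak. CGCATGCG, of the NRF1 type, was present in 8 (9.41%, all promoters 2.88%), which were 3 of the 44 members with a peak (6.82%) and 5 of the 41 without (12.2%). Over all promoters its shares were 3.74% with a peak and 2.25% without. TGACGTCA, the CRE, was found in none of the 85, which allows a share of up to 3.53%, against 2.68% of all promoters. The letters of the ETS type and of the CCAAT box were thus about as frequent at members with a new peak as at those without. Over all promoters the ETS letters had shares of 15.1% with a peak and 13.5% without. For CCAAT these were 32.3 and 38.7%. The shares over all promoters were not matched to the members by CpG number. Of the genes with sequences printed above, SNRPD1, SNRPA1 and SF3B2 had the ETS letters in the counted window. The CCAAT box was present there in HNRNPA0, SNRPD1, SF3B5, HNRNPA1L3, SRSF8, SNRPA1 and PRPF40B.

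Other genes of the pathway were taken as 5 lists. Among 53 further genes of the core spliceosome 15 had a new peak (28.3%, interval 16.8 to 42.3%), below the 43.9% expected from their CpG numbers. With a peak were DDX42, a helicase (14.9), SNRNP48 of the minor spliceosome (11.8) and SF1, which binds the branch point (10.1), and SNRNP70 of the U1 snRNP (7.49). Of the U5 proteins named here, TXNL4A had a new peak (9.31), and EFTUD2 and SNRNP200 had none. Of 36 splicing regulators 17 had one (47.2%, interval 30.4 to 64.5%, expected 63.9%), among them PTBP3 (14.3), MBNL1 (13.7) and QKI (12.4). PTBP1, with 228 CpGs, and TRA2A, TRA2B and RBM39 had none.

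All 9 kinases of SR proteins had a new peak (interval 66.4 to 100%, expected 67.3%), from SRPK1 with 12.4 and SRPK2 with 9.36 to SRPK3 with 3.06. PRPF4B is both a member and one of these 9. In the SMN complex and the assembly of the Sm ring, it was 5 of 12 (41.7%, expected 40.2%), with GEMIN5 highest (9.31). In the exon junction complex it was 2 of 6 (33.3%, expected 47.4%), EIF4A3 (11.9) and CASC3 (6.33). Of the 11 intervals for subfamilies and lists, that of the core spliceosome list did not include its expected share. The splicing regulators, the exon junction complex and the SNRP, PRPF and SF3A, SF3B and U2AF subfamilies also had shares under the expected ones, within their intervals.

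The absence of a new peak is no measurement of methylation. The list holds peaks with a −log10 q of 2.0 or more and with 6 or more fragments at the summit, and the methylation of these promoters in untreated cells was not analysed here.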

How the data were processed

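The series holds 4 MBD-seq libraries of HEK293 cells, 1 per condition, of which the Ab-3A3L (WT) library was used here through its deposited list of new peaks. According to the methods and the submitters' processing notes, mapping to hg19 was done by the authors with Bowtie2, and the notes name MACS2. Settings of the peak call are not given in the sources used here. The deposited score is a whole number equal to 10 times the −log10 q, rounded down. The fold in the deposited list is a ratio of summit fragments over background. For each peak the authors also deposited the −log10 of its p-value and of its q-value. The total depth of the library is not known from the list.

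Promoters, with 1000 bp on either side of the canonical start site in GENCODE 44 lifted to GRCh37, were overlapped with the peaks by at least 1 bp. CpGs were counted in the GRCh37 sequence and promoters were placed in 10 classes of CpG number. The expected share is the mean over members of the share of other promoters in the same class. CpG islands were rebuilt from unmasked sequence (each CpG scored 17, each other base -1, length over 200 bp, GC of at least 50%, observed to expected ratio over 0.6). Fragments k and the background rate were recovered by setting the fold equal to (k + 1)/(rate + 1) and treating the p-value as a Poisson probability, with a largest miss of 0.000403 in −log10 p. That this is how the values were made is an inference from their fit. The step was tested on simulated data. Intervals are 95% exact binomial or Poisson ones and cover counting error only. Where a count was 0, 3 counts of the total were taken as the limit.

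The members and lists were chosen with earlier results of these data known. Named are the 3 members with the highest fold in each subfamily, the members without a peak, of which 1 is not reported here by name, the lowest folds, members whose peak misses the start site and members with more than 1 peak. Further members, the grouping by role, the pathway genes named and the windows around summits were chosen after the values were seen. With 1 library per condition no test was made. Computations used scipy 1.17.1, numba 0.67.0, pandas 2.3.3 and numpy 2.4.6 under Python 3.11.15, with matplotlib 3.10.9 for plots.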

Additional observations from a re-analysis of the deposited data

How the results depend on the processing

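Of 47 alternatives, 40 left the values within 1.5 times the count or within the interval. With peaks of −log10 q of at least 10, members with a new peak fell from 44 to 29, SNRP from 4 to 1, and SF3A, SF3B and U2AF from 4 to 1. With peaks of at least the median fold of the list, SNRP fell to 2, SF3A, SF3B and U2AF to 1, and the other pathway genes from 47 of 115 to 26, while the members stood at 32. These follow from the construction of the alternatives, which keep fewer peaks. The expected share was 64.5% by the observed to expected CpG ratio, 56.2% with 20 classes and 59.0% with island promoters only, beside 56.0%. With 500 bp on either side 40 members had a peak, without SF3B6, HNRNPK, SRSF1 and SNRPD3, and with 2000 bp 46, with HNRNPA2B1 and PRPF6 added. The median fold was 8.71, 8.69 or 8.65 and the median distance 304 or 288 bp. No paired analysis was possible because each condition was sequenced as 1 library. The number of genes per subfamily and fragments per peak, a median of 16, limit what can be told apart.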
